A study of Drosophila melanogaster with 3 samples.

Results

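The nuclear pore genes described here are 9 nucleoporin genes of Drosophila melanogaster: Nup50, Nup54, Nup58, Nup62, Nup75, Nup88, Nup98-96, Nup107 and Nup153. They were taken by name, not by a measured value, from the Ensembl annotation, which lists Nup88 as mbo, and make up 9 of 18164 annotated genes on the 6 main chromosome arms, 13945 of them protein-coding. The question was where peaks of a tagged protein assayed as a transcription factor, CG9727, lie from 2 kb upstream of each gene's first transcription start site (TSS) to the end of the gene.

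Nuclear pores are large protein channels through the nuclear envelope, assembled from several copies each of the proteins called nucleoporins. A Y-shaped scaffold complex coats the membrane, phenylalanine-glycine-rich proteins fill the central channel and bind passing transport receptors, and other nucleoporins form the cytoplasmic filaments and the nuclear basket. In flies some nucleoporins, among them products of Nup98-96, Nup62, Nup50 and Nup153, are also known to contact chromatin.

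ChIP-seq, the sequencing of DNA that comes down with a protein, was done on whole embryos, 0 to 24 h old and of both sexes together, from a transgenic line in which CG9727 carries a C-terminal enhanced GFP. Fragments were pulled down with an antibody against GFP. The 3 samples form 1 group, biological replicates 1, 2 and 3, with no second condition, and no precipitate lacking the fusion is compared here. The labels do not tie the replicates to separate collections of embryos, and their spread may be technical. A whole embryo mixes all its cell types.

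The values are the authors' peak lists on the dm6 genome build, and read depth is unknown from them. A thresholded list of 7896 peaks was made by irreproducible discovery rate (IDR), a method that judges how well the order of peaks holds between replicates. Longer relaxed lists, 1 from the pooled alignments and 1 per replicate, held 30000 peaks each. Each peak has a summit, its point of highest signal, and rank 1 is the peak with the highest of the authors' signal values in its list. The thresholded list was identical to the 7896 strongest pooled peaks, so a pooled rank past 7896 lies outside it. A peak in it therefore need not rank high in each replicate. CG9727 itself had no thresholded summit within 500 bp of a TSS, the nearest being 6474 bp away.

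Most of these 9 genes had no thresholded peak at their promoter. A summit within 500 bp of a TSS was found at 2 of 9 genes, Nup98-96 and Nup58, which is 22.2% of them and near the 27.0% of all protein-coding genes. Over the whole window, from 2 kb upstream to the gene end, 4 of 9 genes held a thresholded summit (44.4%), against 37.2% of protein-coding genes, and the 2 added genes were Nup107 and Nup153. Those windows held 8 thresholded summits in all. Of these, 6 lay nearest to a neighbour's TSS and 2 to the nucleoporin's own, 1 each at Nup98-96 and Nup58.

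Nup98-96 had the strongest promoter peak of the 9. The gene encodes a precursor that is cleaved into Nup98, a channel protein and mRNA export factor, and Nup96, a subunit of the Y complex. It is FBgn0039120, at chr3R:23774225-23781621 on the minus strand, with 2 annotated TSSs. Its summit at position 23781580 lay 41 bp downstream of the upstream TSS, in an untranslated exon, and 171 bp upstream of the other TSS. This summit ranked 1277 with a signal of 614. In replicates 1, 2 and 3 the strongest promoter summit ranked 2085, 947 and 1104, which is 1379 ± 617 (SD, n = 3). All 3 replicates therefore held it far inside their 7896 strongest peaks, at 42, 98 and 41 bp from the TSS. The promoter is shared with mbc, myoblast city, a guanine nucleotide exchange factor needed for myoblast fusion, whose TSS diverges 144 bp away. A weaker thresholded summit at 23781782, rank 4823 and signal 242, lay 17 bp inside mbc and 161 bp upstream of Nup98-96. Replicates 1, 2 and 3 placed it at ranks 8483, 2053 and 3958. The higher-ranked summit thus fell on the Nup98-96 side of the shared promoter and the other on the mbc side. The 143 bp between both TSSs, chr3R:23781622-23781764 (plus strand, RefSeq copy of the dm6 assembly), are shown because both peaks reach into them. Capitals in this and the other sequences mark matches on either strand to motifs described further on, and this one has none. All were read from the same assembly copy. The strongest peak of the whole window was not at the promoter. It lay 1288 bp upstream of Nup98-96, inside an mbc intron, at rank 577 with a signal of 934, and its summit ranked 423, 922 and 649 in replicates 1, 2 and 3. The remaining summit, at 23783108 in the same intron, ranked 4217. Replicate 1 had no summit within 100 bp of it, the nearest being 171 bp away, and replicates 2 and 3 ranked it 22671 and 5015. The 101 bp around the rank 577 summit, chr3R:23782859-23782959, are printed after the promoter with the summit at base 51.
Nup98-96 to mbc: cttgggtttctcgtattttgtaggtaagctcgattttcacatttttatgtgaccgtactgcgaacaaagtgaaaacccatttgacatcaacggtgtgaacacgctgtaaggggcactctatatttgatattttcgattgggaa
mbc intron summit: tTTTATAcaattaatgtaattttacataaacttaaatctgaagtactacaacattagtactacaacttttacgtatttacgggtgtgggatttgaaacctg

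Nup107, a Y complex subunit, had a promoter summit in every relaxed list but none in the thresholded one. The gene is FBgn0027868 at chr2L:10733293-10736071, minus strand. The pooled summit lay 42 bp upstream of the TSS and ranked 10070, outside the thresholded list. In replicates 1, 2 and 3 it ranked 14076, 7676 and 11602 (11118 ± 3227, SD, n = 3), at 39, 41 and 136 bp upstream. Replicate 2 alone put it among its 7896 strongest. The thresholded summit in the Nup107 window sat much further up, 1252 bp upstream at 10737323, and 22 bp upstream of CG12299, the next gene but 1 upstream, which lies on the opposite strand. It ranked 1393 with a signal of 586. It ranked 1611, 992 and 1604 in replicates 1, 2 and 3, within 4 bp of the same position. The same summit was 280 bp upstream of Vha16-5, a proton pump subunit gene lying between it and Nup107. The first 150 bp upstream of Nup107, chr2L:10736072-10736221, hold the relaxed summit at base 42. The second stretch, chr2L:10737195-10737344, ends at the CG12299 TSS and holds the thresholded summit at base 129. Both are on the plus strand and set the weak Nup107 promoter beside its strong neighbour.
Nup107 upstream: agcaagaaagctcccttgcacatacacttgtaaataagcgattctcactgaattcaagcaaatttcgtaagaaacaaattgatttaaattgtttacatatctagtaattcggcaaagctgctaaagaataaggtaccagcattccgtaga
CG12299 upstream: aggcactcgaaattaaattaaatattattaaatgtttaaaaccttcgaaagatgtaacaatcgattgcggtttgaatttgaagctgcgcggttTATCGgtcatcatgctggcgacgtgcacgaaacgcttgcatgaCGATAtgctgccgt

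Nup75, the third Y complex gene of the set, had only faint peaks. It is FBgn0034310 at chr2R:18164694-18167140, minus strand. A promoter summit ranked 26142 in the pooled list, 123 bp upstream, and 20376 in replicate 3, 129 bp upstream. Replicates 1 and 2 listed none within 500 bp. A higher-ranked summit lay 1206 bp upstream at rank 20560 in the pooled list, with ranks 16114 and 23815 in replicates 1 and 3 and none in replicate 2. The TSSs of CG42518 and of MED9, a Mediator subunit gene, diverge from it 87 and 115 bp away, and the nearest thresholded summit was 5094 bp from Nup75.

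**Figure D1:**
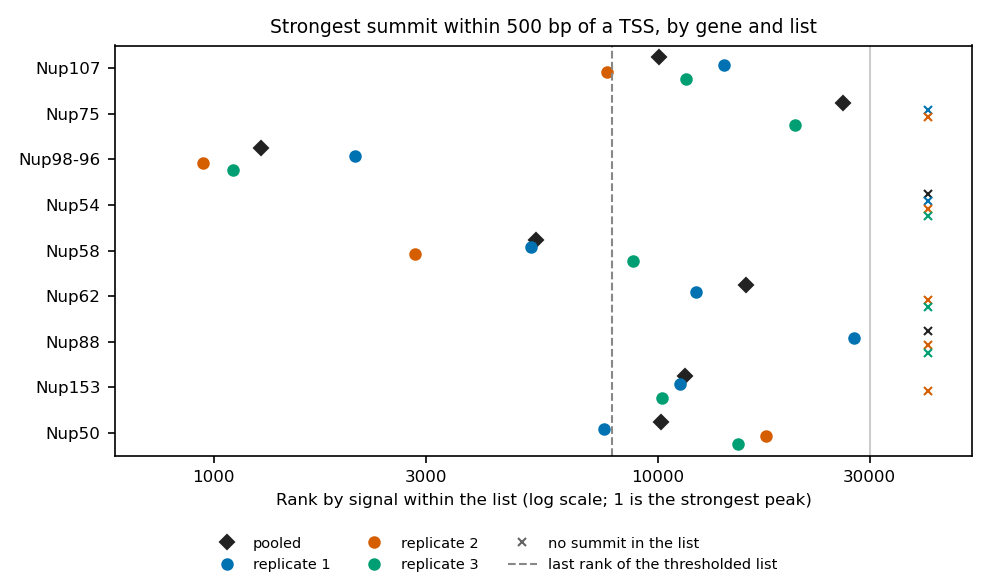
Rank by signal (log axis) of the strongest summit within 500 bp of a TSS for each of the 9 genes in the pooled list (diamonds) and in replicates 1, 2 and 3 (circles), with crosses where a list has no such summit. Nup98-96 lies between ranks 947 and 2085 in all lists, Nup58 between 2847 and 8781, and no other pooled rank lies left of the dashed line at 7896.

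Among the central channel genes, Nup58 was the only one with a thresholded promoter peak. Nup58 forms the channel subcomplex with Nup54 and Nup62. It is FBgn0038722 at chr3R:19645026-19646906, plus strand. Summits lay 376 and 175 bp upstream of its TSS, at ranks 5324 and 6876 with signals of 221 and 179. In replicates 1, 2 and 3 the strongest summit within 500 bp ranked 5192, 2847 and 8781 (5607 ± 2989, SD, n = 3), at 282, 246 and 361 bp upstream. Replicates 1 and 2 thus had such a summit inside their 7896 strongest peaks and replicate 3 did not. These were not all the same summit: the replicate 2 summit lay 130 bp from the rank 5324 summit and 71 bp from the rank 6876 one, while those of replicates 1 and 3 lay 94 and 15 bp from the rank 5324 summit. Replicate 3 had a stronger summit at rank 6469, but 569 bp from Nup58 and 71 bp upstream of Vha13. Vha13 encodes a subunit of the vacuolar proton pump, and its TSS diverges 640 bp away. The rank 5324 summit lay 264 bp upstream of Vha13 and so was closer to it than to Nup58, while the rank 6876 summit was closer to Nup58. Further up, in an untranslated exon of Vha13, the pooled list and replicate 1 had a summit 1831 bp upstream, at ranks 13902 and 25763. Replicate 2 had summits 1999 and 1787 bp upstream at ranks 7007 and 15838, and replicate 3 had none there. Of all 4 thresholded promoter summits at Nup98-96 and Nup58, 1 was matched within 100 bp among the strongest peaks of every replicate, that of rank 1277. The 300 bp at chr3R:19644600-19644899 (plus strand) hold the Nup58 summits at bases 51 and 252. The 60 bp next to the TSS, chr3R:19644966-19645025, hold a DNA replication-related element (DRE), TATCGATA, at base 50.
Nup58 upstream: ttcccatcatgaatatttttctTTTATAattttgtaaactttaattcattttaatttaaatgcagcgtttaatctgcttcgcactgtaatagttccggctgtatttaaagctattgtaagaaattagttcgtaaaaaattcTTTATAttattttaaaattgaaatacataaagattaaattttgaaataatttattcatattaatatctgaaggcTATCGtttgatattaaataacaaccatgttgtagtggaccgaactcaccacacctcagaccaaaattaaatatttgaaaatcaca
Nup58 proximal: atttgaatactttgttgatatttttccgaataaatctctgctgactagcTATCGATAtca

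Nup62 and Nup54, the other channel genes, had no thresholded summit in their windows. Nup62 (FBgn0034118, chr2R:16344377-16345828, plus strand) had a relaxed pooled summit 40 bp downstream of the second of its 2 TSSs at rank 15770. Replicate 1 had one 113 bp downstream at rank 12219, and replicates 2 and 3 had none within 500 bp. Replicate 2 instead listed a summit 739 bp upstream of the first TSS at rank 13188, and replicate 3 one 656 bp upstream at rank 12121, both nearest to a TSS of the divergent gene CG7997. The pooled list also had a summit there, 682 bp upstream, and at rank 14508 it stood above the pooled promoter summit. Nup54 (FBgn0033737, chr2R:12428449-12431099, minus strand) had no promoter summit in any list, the only such case among the 9 genes. Its only peak was in replicate 3, 1398 bp inside the gene in a coding exon, at rank 27589.

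The cytoplasmic face gene was the most distant from any thresholded peak. Nup88, in flies mbo or members only, works with Nup214 and restrains nuclear export through the receptor encoded by emb. It is FBgn0026207 at chr3R:12676487-12679052, minus strand, and no other TSS lies within 1 kb of its own. Replicate 1 had a summit 281 bp downstream at rank 27697, and replicate 2 had summits 700 and 1489 bp downstream at ranks 26968 and 19104. The pooled list and replicate 3 held none in the window, and the nearest thresholded summit was 24957 bp from the TSS.

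Nup153, a protein of the nuclear basket, had a thresholded peak just beyond its promoter. The gene is FBgn0061200 at chrX:16599241-16610459, plus strand. The summit lay 644 bp upstream at 16598597, ranked 7858 of 7896 with a signal of 159, and so was among the last peaks kept. It fell in an intron of CG9784 and 101 bp upstream of an internal TSS of that gene, whose first TSS diverges from Nup153 26 bp away. In replicates 1, 2 and 3 it ranked 6956, 16255 and 7443, so replicate 2 placed it far lower. Nearer to Nup153, the strongest promoter summit ranked 11518 in the pooled list, 441 bp upstream, and 11203 and 10224 in replicates 1 and 3, while replicate 2 listed none within 500 bp. Inside the gene the relaxed lists held further summits. Those of the pooled list lay 192, 592, 7613 and 8674 bp downstream of the TSS, at ranks 23861, 23542, 29940 and 21572. Replicate 2 had its strongest summit of the window 550 bp downstream, at rank 10042. The 101 bp around the thresholded summit, chrX:16598547-16598647 (plus strand), are given with the summit at base 51.
CG9784 intron summit: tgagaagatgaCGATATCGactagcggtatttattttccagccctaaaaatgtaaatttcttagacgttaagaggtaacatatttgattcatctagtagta

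Nup50, which works at the basket as a cofactor of importin-mediated transport, had promoter peaks only in the relaxed lists. It is FBgn0033264 at chr2R:8123036-8125058, plus strand, and the TSS of Asap, an Arf GTPase-activating protein gene, diverges 35 bp away. Its strongest promoter summit ranked 10191 in the pooled list, 351 bp upstream. In replicates 1, 2 and 3 it ranked 7557, 17533 and 15122 (13404 ± 5205, SD, n = 3), at 354, 351 and 428 bp upstream, which is inside Asap. A second summit near the TSS itself, 45 bp upstream, ranked 15471 in the pooled list. Only replicate 1 placed a Nup50 promoter summit among its strongest 7896. Further up, 1626 bp upstream in an Asap intron, every relaxed list had another summit, at rank 12403 in the pooled list and 15281, 6394 and 25235 in replicates 1, 2 and 3. That of replicate 2 was its strongest in the window and inside its 7896 strongest peaks. The nearest thresholded summit was 4302 bp away.

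**Figure D2:**
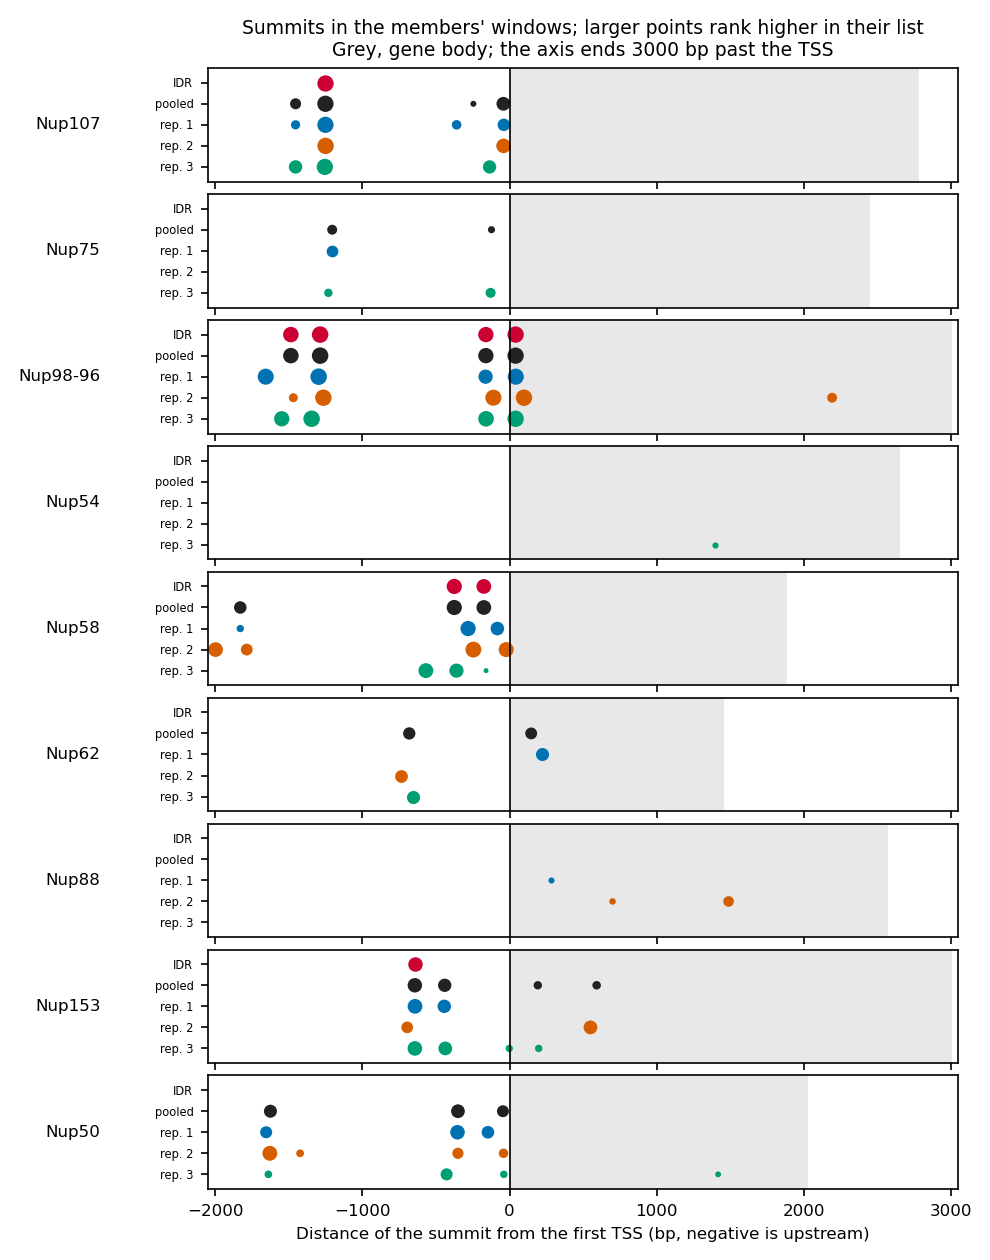
Summits of the thresholded list (red), the pooled list (black) and replicates 1, 2 and 3 (blue, orange, green) by distance in bp from the first TSS of each gene, with the gene body in grey and larger points for higher ranks within the list. The 8 thresholded summits lie between 1487 bp upstream and 41 bp downstream of the TSS, in the windows of Nup107, Nup98-96, Nup58 and Nup153 only. The axis stops before the end of the longer genes, so relaxed summits of Nup153 from 7566 bp downstream onwards are not drawn.

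Taken replicate by replicate, the number of these genes with a promoter summit changed with the library. Among the 7896 strongest peaks of replicates 1, 2 and 3, promoter summits stood at 3, 3 and 1 of the 9 genes (2.33 ± 1.15, SD, n = 3), against 27.8%, 26.4% and 27.0% of protein-coding genes. Nup98-96 was present each time, Nup58 was joined by Nup50 in replicate 1 and by Nup107 in replicate 2, and replicate 3 had Nup98-96 alone. With no limit on rank, 7 of 9 genes had a promoter summit in the pooled list (77.8%), against 50.1% of protein-coding genes. In all 3 complete replicate lists at once, 4 of 9 genes did (44.4%: Nup50, Nup58, Nup98-96 and Nup107), against 38.8%. Nup50 and Nup107 were therefore listed by every replicate without reaching the threshold, and the 30000 peaks of a relaxed list include weak ones.

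In 6 of the 9 genes the TSS of another protein-coding gene lay within 1 kb in head-to-head orientation (66.7%: Nup50, Nup58, Nup62, Nup75, Nup98-96 and Nup153), against 36.2% of protein-coding genes. The same held for 17 of 21 other pore genes (81.0%) and 13 of 24 nuclear transport genes (54.2%), lists described further on. Of these 6, Nup58 and Nup98-96 had a thresholded promoter summit (33.3%), against 47.9% of all genes with such a neighbour. None of the remaining 3, Nup54, mbo and Nup107, had one, against 15.2% of genes without such a neighbour. Both genes with a promoter peak thus shared the promoter, and a summit there cannot be given to either gene of the pair. Gaps between the paired TSSs ran from 26 bp at Nup153 to 640 bp at Nup58.

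Both genes with a promoter peak had 2 thresholded summits there. Of all protein-coding genes with at least 1, 22.8% had 2 or more. In the lists described further on, 3 of 9 such other pore genes (33.3%) and 1 of 13 such transport genes (7.69%) did. The pairs were 202 bp apart at the Nup98-96 promoter, 199 bp in the mbc intron and 201 bp upstream of Nup58. Across the thresholded list, 1012 pairs of neighbouring summits lay within 500 bp of each other, with a median spacing of 203 bp and a minimum of 199 bp. The spacing at Nup98-96 and Nup58 is therefore that of the list as a whole and close to the smallest it holds. Read coverage is not part of these lists, so whether a pair is 1 site or more was not tested.

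By strength the 2 bound genes stood on either side of the middle. The median rank of the strongest promoter summit was 3300 over Nup98-96 and Nup58, against 3101 over the 3770 protein-coding genes with one. Genes next to them in rank were phr, a DNA photolyase gene, at 1274 and CG4022 at 1278 beside Nup98-96, and lost at 5323 and Idgf6, an imaginal disc growth factor gene, at 5326 beside Nup58. The likeness is in rank alone. The median distance from a TSS to the nearest thresholded summit was 4302 bp over the 9 genes, within a range of 41 to 24957 bp, and 4427 bp over protein-coding genes.

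Other genes of the pore were set beside these by role, in lists written with earlier results of these data known. Of 21 further pore genes, 9 had a thresholded promoter summit (42.9%), so that 11 of all 30 pore genes did (36.7%), against 27.0% of protein-coding genes. All 9 were among the 17 of these 21 genes with a head-to-head neighbour (52.9%), against 47.9% of all genes with such a neighbour. The Y complex with its chromatin-binding partner Elys differed within itself. Nup98-96 was the only 1 of 3 among the genes described here, with Nup75 and Nup107 without a summit, while all 7 of the further ones had one. The further ones were led by Nup37 at rank 94 (replicates 185, 82 and 77), Nup133 at 1116, Sec13 at 2232 and Nup160 at 2647, with Elys at 3239. The rank 94 summit lay 130 bp upstream of Nup37, and the TSS of the ribosomal protein gene RpS27 diverges from Nup37 144 bp away. The Elys summit lay 220 bp upstream of Elys and 184 bp inside its divergent neighbour Ranbp21. Such summits cannot be given to either gene of a pair, and which TSS lay nearest was not counted for this list. Inner ring genes had 2 of 6, and the stronger was Nup93-2 at rank 3039. Basket and cytoplasmic face genes had none in either list (0 of 3 and 0 of 5), and membrane genes had 0 of 3. Genes without one included Aladin, Gle1, Gp210 and Mtor, of which Gp210, a membrane ring gene, lay 213663 bp from the nearest thresholded summit.

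Nuclear transport genes, whose products pass through the channel, carried thresholded promoter summits at 13 of 24 (54.2%), against 27.0% of protein-coding genes. Of the 13 with a head-to-head neighbour 11 had a summit (84.6%), against 47.9% of all protein-coding genes with such a neighbour. Of the 11 without one 2 did (18.2%), against 15.2% of all those without. The strongest were Kap-alpha3 at rank 240, Tnpo-SR at 611, Tnpo at 811, RanGAP at 832, msk at 1673 and Karybeta3 at 2101. Importins had 6 of 11, exportins 2 of 4, Ran cycle genes 3 of 4 and mRNA export genes 2 of 5. The split into importins and exportins is that of the list used here. It counts Ranbp16, which had no promoter summit, with the importins, and that placing was not checked. Examples without a promoter summit were the importin genes cdm and Ranbp11 and the exportin genes Cse1 and ebo. In replicates 1, 2 and 3 alone the other pore genes gave 10, 10 and 10 of 21 and the transport genes 13, 10 and 12 of 24, against 3, 3 and 1 of the 9. No test was run between the lists, because they were chosen with results known, and Elys and the exportin gene Ranbp21 share 1 summit.

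**Figure D3:**
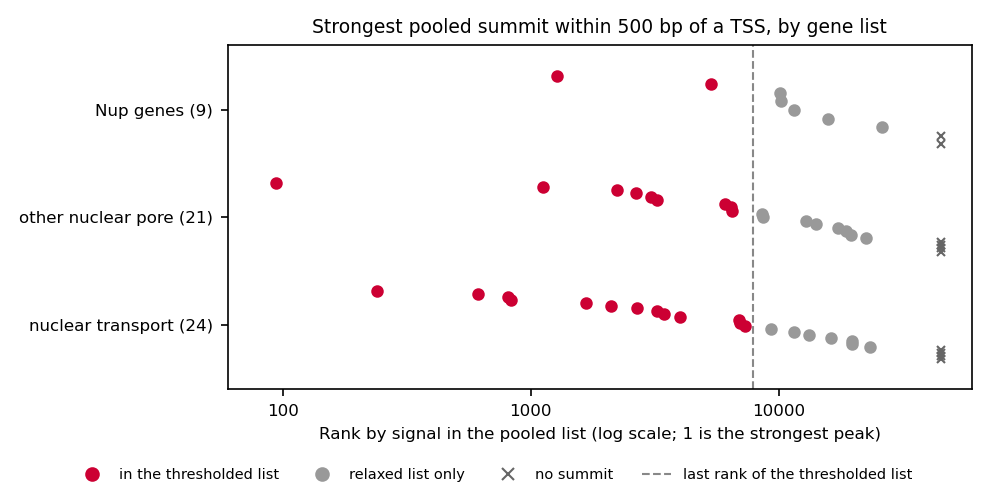
Rank by signal in the pooled list (log axis) of the strongest summit within 500 bp of a TSS, 1 point per gene, for the 9 Nup genes, 21 other nuclear pore genes and 24 nuclear transport genes. Red points are in the thresholded list, 2, 9 and 13 genes from top to bottom, grey points are in the relaxed list alone, and crosses mark genes with no summit.

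The DRE, a motif of many housekeeping promoters, was present at several of the genes without following the peaks gene by gene. Promoters, from 250 bp before to 50 bp after the first TSS, were searched on both strands for the DRE (TATCGATA), the shorter CGATA that lies inside it, core promoter Motif 1 (GGTCACAC), the GAGA motif (GAGAG), the TATA box (TATAAA) and an E-box (CAGCTG). The DRE was found at 4 of 9 genes, Nup50, Nup54, Nup58 and Nup75, against 9.36% of protein-coding promoters. Only Nup58 of these had a thresholded promoter summit, Nup98-96 had a summit without these letters, and Nup54 had the letters without a promoter summit in any list. Across protein-coding genes, 45.0% of promoters with a DRE and 25.2% without one had a thresholded summit. CGATA was found at 6 of 9 genes against 47.4% of promoters, and the GAGA motif at 3 of 9 against 29.7%. The letters of the TATA box, counted at any position in the promoter, were at 5 of 9 against 45.8%. Their matches nearest to the first TSS began at -98 bp (Nup58), -77 bp (Nup62), 40 bp (Nup75), -176 bp (Nup88) and 1 bp (Nup98-96), negative being upstream. Motif 1 and the E-box were at 0 of 9, against 7.70% and 17.7%.

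Within 50 bp of a thresholded summit, none of the 8 windows held a DRE, which 1.75% of all 7896 summits and 3.70% of promoter summits did. The Nup58 DRE lies 11 bp upstream of the TSS and 164 bp from the nearer thresholded summit. Single replicates had summits closer to it, replicate 2 at 12 bp (rank 6034) and replicate 1 at 72 bp (rank 10723). CGATA occurred in 3 of the 8, at the rank 6876 summit of Nup58 and at the upstream peaks of Nup107 and Nup153, against 14.8% of all summits and 20.1% of promoter summits. The TATA box occurred in 3 of the 8, against 22.2% of all summits. Of the 8, the mbc intron summits lay over 1 kb from any TSS. These matches are letters and were not tested as binding sites. Those at the summits lie in the sequences printed above, except the TATA match at the rank 1277 summit of Nup98-96.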

How the data were processed

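Per the file descriptions, the authors made relaxed peak lists from each replicate's alignment and from the pooled alignments, against 1 control, and a thresholded list by IDR. Each deposited peak carries the authors' own signal value, used here only to rank peaks within a list, and a −log10 q, used as an alternative ranking. Interval and summit positions were used as deposited, counted from 1. Which aligner, peak caller and IDR threshold were used, and in which versions, is not given in the sources used here, and depth is unknown. The dm3 lists were not used here.

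Genes and TSSs came from Ensembl release 115 and sequence from the RefSeq copy of dm6, and all 9 genes had the same ends in both. Nup88 was matched as mbo, and 2 other list genes (Mtor, Ranbp11) by an older symbol. A summit within 500 bp of a TSS was a promoter summit, summits within 100 bp matched, and TSSs diverging within 1 kb were head to head. Ties in rank kept file order for signal and were averaged for −log10 q. The calls were checked on simulated summits. Python 3.11.15, NumPy 2.4.6, pandas 2.3.3 and Matplotlib 3.10.9 were used.

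The 9 genes and both gene lists were chosen with earlier results of these data known, so no test was run on them. Genes named were the 9, those with a TSS within 1 kb of their promoter summits, up to 6 bound genes of highest signal and 4 unbound ones in alphabetical order from each list, the neighbours in rank of the bound genes, and CG9727. Of the remaining names, Asap, CG7997, CG42518, MED9, CG12299, Vha16-5, CG9784, Nup214, emb, Ranbp16, Ranbp21 and RpS27 were added after values were seen or as background. Alternatives changed the TSS window, the matching distance, the list, the ranking, the replicate and the head-to-head limit.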

Additional observations from a re-analysis of the deposited data

How the results depend on the processing

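Of 56 values computed under other settings, 45 kept within 1.5 times the reported count or within 1 SD over replicates, and 11 moved. Some of the 45 could not move. The pooled list cut to 7896 peaks is the thresholded list itself. Leaving out 1 of 3 replicates cannot shift a mean replicate rank by 1 SD. The 45 are therefore not a measure of robustness. With only the thresholded peaks above their median signal, Nup98-96 alone of the 9 genes had a promoter summit (1 gene, against 2), and 2 genes, against 4, had a summit in the window. Replicate 3 alone also gave 1 gene with a promoter summit. The pooled list limited to 7896 peaks gave the same counts, because it is the same list. Counting a summit only for the nearest TSS left 2 genes, and a window of 1000 bp gave 3, with Nup153 added.

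Replicate recovery depended on its definition. The 1 promoter summit matched in every replicate became 0 with a matching distance of 50 bp, 2 with 200 bp, and 3 with the complete replicate lists, and ranged from 1 to 2 when a replicate was left out, with 2 without replicate 1. With head-to-head TSSs limited to 500 bp, 1 bound gene, Nup98-96, was head to head, against 2. The median rank of the 4 promoter summits, as a percentage of the thresholded list, was 64.3% by signal and 40.0% by −log10 q. Among the peaks above the median signal only the rank 1277 summit was left, at 32.3% of that shorter list. In the thresholded list −log10 q was tied at its highest, 4.10, for 6318 of 7896 peaks. By −log10 q the mean replicate rank of Nup98-96 was 3001, against 1379 by signal. Its summit was tied at the highest −log10 q in each replicate list, with 7286, 3838 and 6881 peaks at that value in replicates 1, 2 and 3. The 3001 is thus the averaged rank of those ties and not a weaker place for this peak.

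No paired analysis was possible because the series has 1 group. Depth, and so the chance of missing a weak promoter peak, could not be judged from these lists. A gene without a peak here had no listed summit, which does not show that the protein was absent.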
